A study of Mus musculus with 12 samples.

Results

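The splice variant β4a of the calcium channel β4 subunit was compared with eGFP in cultured cerebellar granule cells of lethargic mice. The comparison used 6 of the 12 arrays of the series, 3 with β4a and 3 with eGFP, each numbered 1 to 3 by its title and set against the array of the same number. It was described across the 23044 probe sets whose log2 value exceeded 4 on 3 or more of the 12 arrays. Every value is a log2 GCRMA intensity, so that a difference of 1 is a 2-fold change.

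Each sample, eGFP controls included, is labelled lethargic, the mutation of Cacnb4, on the 129/SvJ background. The growth protocol shared by the samples also names BALB/c mice, without saying for which cultures. The cells were taken from mice at postnatal day 7, exposed to lentivirus for 12 hours directly after plating, treated with the antimitotic Ara-C from 24 hours after plating, and harvested on day 9 in vitro. The β4a cultures received a virus coding for β4a and the control cultures one coding for eGFP. The other 6 arrays held cultures with the variants β4b and β4e, 3 each, and served to estimate the spread. The labels do not say whether arrays of a group came from separate cultures or animals, how many mice a culture held, or what share of the cells was transduced. The p-values therefore measure the spread between these samples, which may be technical. RNA came from whole cultures, in which fewer cells of a type and less RNA per cell cannot be told apart.

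The β subunits are cytoplasmic partners of the pore-forming α1 subunits of voltage-gated calcium channels. They bind the intracellular linker of the pore subunit, promote its delivery to the membrane and shape its gating. β4 is the main β subunit of cerebellar granule cells, the small glutamatergic neurons whose parallel fibres contact Purkinje cells. Its splice variants differ at the N terminus, and some of them also enter the nucleus. Calcium entry through these channels and through glutamate receptors drives immediate early genes in neurons.

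The cultures carried the transcripts of mature granule cells. Gabra6, the granule cell subunit of the GABA-A receptor, stood between 13.58 and 14.02 in all 12 arrays, and the transcription factor Neurod1 between 14.22 and 14.42. Other cell types were present. Gfap, the astrocyte filament, ran from 10.03 to 12.69. Of oligodendrocyte markers, Mbp ran from 13.94 to 14.52, Mog from 6.5 to 9.1 and Olig2, nearer the filter at 4, from 4.60 to 6.35. Of GABAergic interneuron markers, Gad1 ran from 12.33 to 13.69, Gad2 from 7.64 to 9.35 and Slc32a1 from 6.35 to 10.08. Microglial markers were mixed, with C1qa between 7.45 and 9.47, Cx3cr1 between 4.11 and 5.46 and Aif1 not past the filter, and 16 genes of that list were tested. Of Purkinje cell genes 8 were tested, Calb1 reaching 7.00 and Pcp2 not passing the filter. Pecam1 and Cldn5 of endothelium did not pass it either. Array medians ran from 3.84 to 3.90.

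Cacnb4 itself differed little between the groups. Its probe set with the highest level stood at 12.03, 12.01 and 12.24 in eGFP replicates 1 to 3 and at 12.04, 11.96 and 12.10 in the β4a arrays, and the ranges overlapped. The fitted difference was -0.06 (SE 0.08, limma adjusted p = 0.771). The other probe sets of Cacnb4 differed by -0.24 and 0.28 (limma adjusted p = 0.338 and 0.323). The place of these probe sets relative to the coding sequence of the virus was not analysed here, so they are no check of the labels.

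The difference between β4a and eGFP was small beside the difference between replicate numbers. Of the sum of squares over the 6 arrays, 77.7% lay between replicate numbers and 10.9% between the groups. The within-replicate differences correlated across probe sets with r = 0.33 between replicates 1 and 2, 0.35 between 2 and 3, and 0.07 between 1 and 3, where probe sets are not independent replicates. Replicate 1 had the widest differences, with 1178 probe sets at 1 log2 unit or more, against 477 in replicate 2 and 424 in replicate 3.

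**Figure D1:**
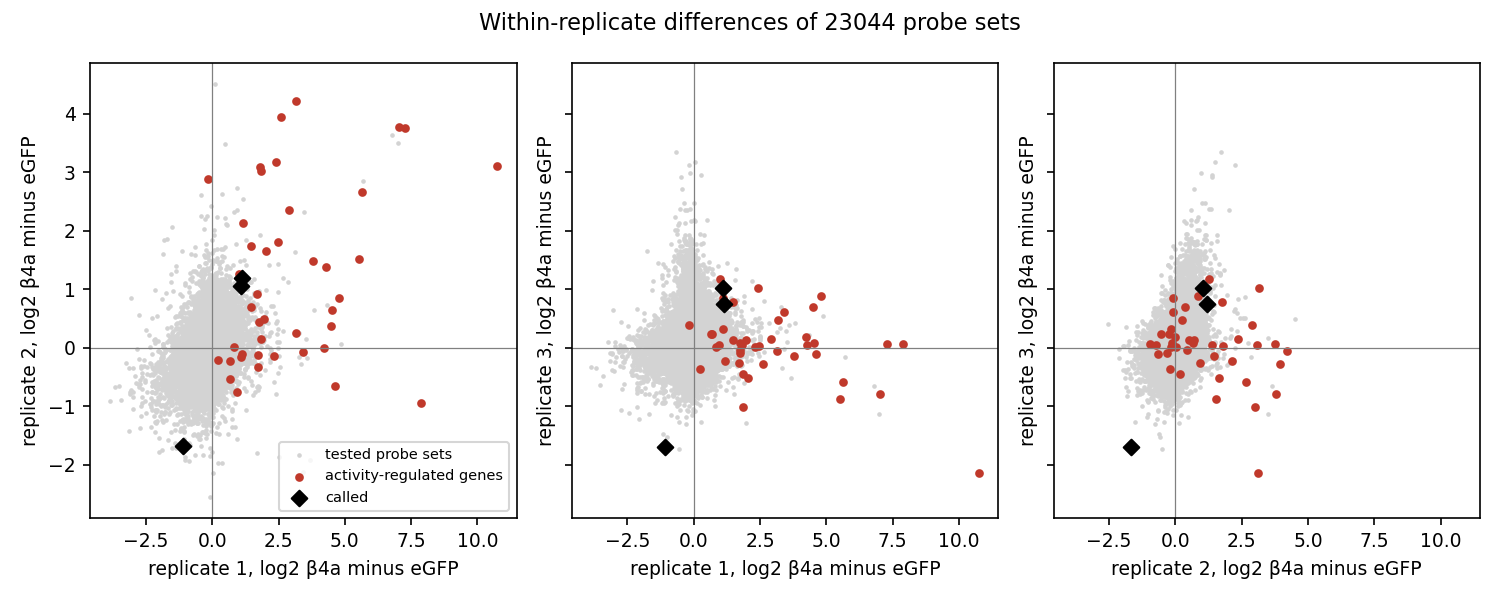
Log2 difference of β4a minus eGFP within 1 replicate number against that within another, for the 23044 probe sets tested (grey), the activity-regulated genes (red, 42 probe sets) and the 3 called probe sets (black diamonds). The red points spread far to the right in replicate 1 and lie around 0 in replicate 3, while the black diamonds keep their side of 0 in all replicates.

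The genes that passed the test for β4a against eGFP were Insm1, which fell, and Hook3 and Rasgef1a, which rose. They were 3 of 23044 probe sets (0.013%) at a limma adjusted p under 0.05 in a fit over all 12 arrays with the replicate number as a block. Without the block 0 probe sets passed (0%), with 363 at an unadjusted p under 0.05 (1.58%), and with the block and only the 6 arrays 0 passed as well.

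Insm1, a zinc finger repressor that drives neuroendocrine and neuronal progenitor differentiation, stood at 10.85, 7.56 and 9.17 in eGFP replicates 1 to 3. In β4a it stood at 9.77, 5.89 and 7.48. Each β4a array lay below the eGFP array of its number, yet the ranges of the groups overlapped because the replicate numbers differed by more than the groups. Insm1 fell by 1.48 on the log2 scale (SE 0.13, limma adjusted p = 0.0175). A dimmer probe set of Insm1 differed by -0.98. Neurod1, which is active in the same endocrine and neuronal programmes, differed by -0.07 on 1 probe set (limma adjusted p = 0.727).

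Hook3, an adaptor that links cargo to the dynein motor and to microtubules, stood at 4.84, 4.83 and 4.23 with eGFP. With β4a it stood at 5.94, 5.89 and 5.25, every array above every eGFP array. It rose by 1.06 (SE 0.11, limma adjusted p = 0.0350). This was its dim probe set, close to the filter at 4. The brighter Hook3 probe sets, with eGFP means of 8.18 and 6.96, differed by 0.07 and 0.11, and a dimmer one by 0.28.

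Rasgef1a, a guanine nucleotide exchange factor of the Ras family, stood at 5.02, 6.78 and 5.28 with eGFP and at 6.14, 7.97 and 6.03 with β4a. Replicate 2 was highest in both groups and the ranges overlapped. Rasgef1a rose by 1.02 (SE 0.11, limma adjusted p = 0.0488). Its brighter probe set differed by 0.88, with 1.57, 0.69 and 0.39 in replicates 1 to 3, and did not pass (limma adjusted p = 0.211).

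These calls depended on the arrays in the fit, controls and the other variants included. On leaving out each of the 12 arrays in turn, Insm1 passed in 3 fits (those without eGFP replicate 1, β4e replicate 1 or β4e replicate 3), Hook3 in 2 (without β4e replicate 1 or 3) and Rasgef1a in 0, with limma adjusted p from 0.00121 to 0.254 for Insm1, and the differences kept their sign in each fit.

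**Figure D2:**
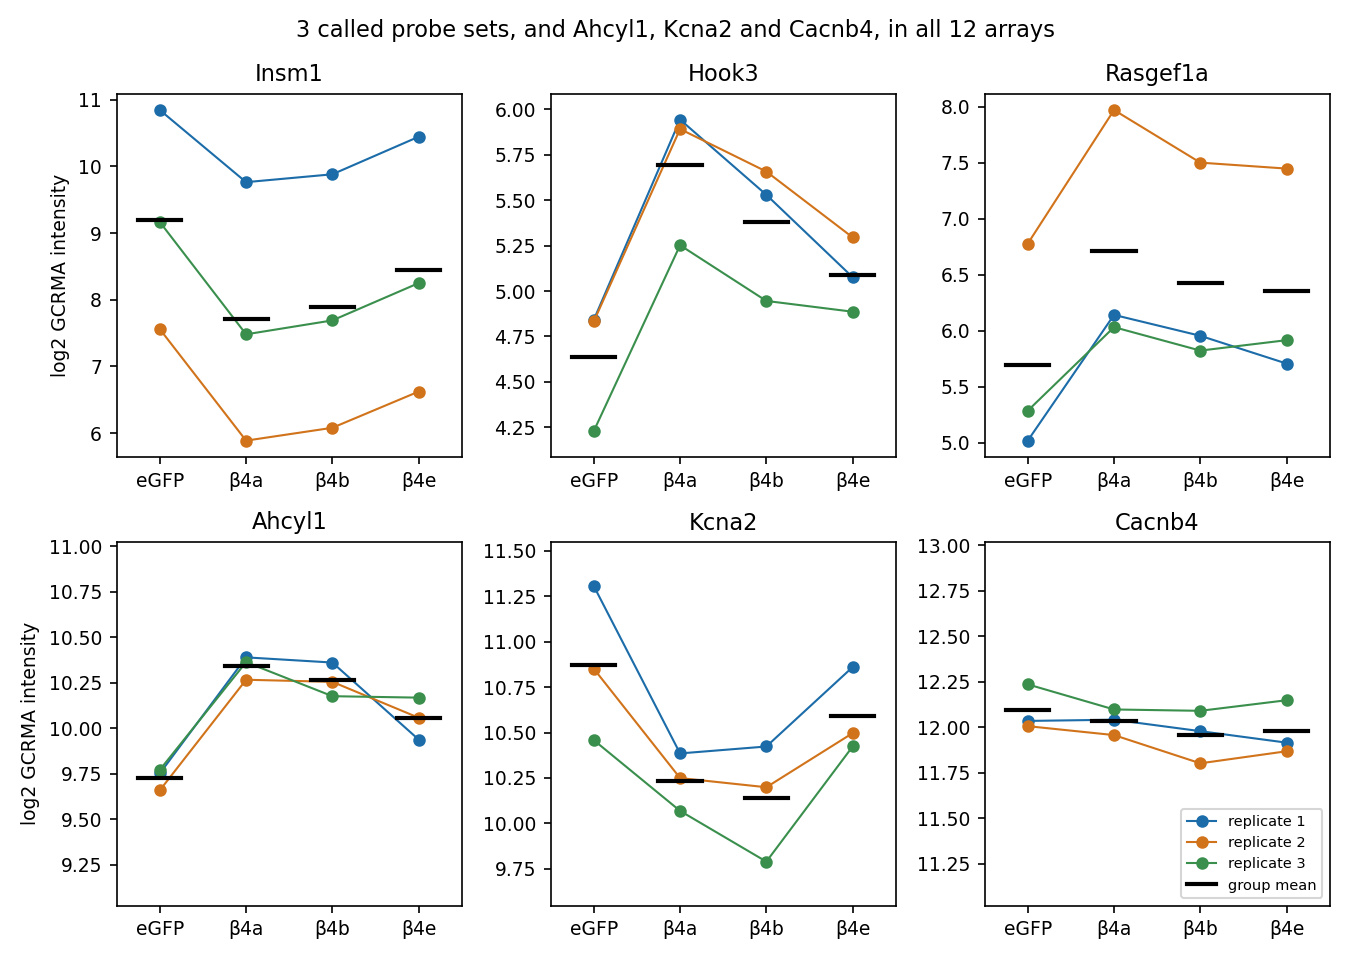
Log2 GCRMA intensity of 6 probe sets in all 12 arrays, by group (x axis), with 1 coloured line per replicate number and a black bar for the group mean. In each replicate number Insm1 is lower and Hook3, Rasgef1a and Ahcyl1 are higher with β4a than with eGFP, Kcna2 is lower, and Cacnb4 lies close to 12 in all groups.

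Beyond the called genes, 3535 probe sets (15.3%) had an unadjusted p under 0.05 with the block, 1893 higher (8.21%) and 1642 lower (7.13%) with β4a. None of these others passed after adjustment. The 3 within-replicate differences were all above 0 for 4396 probe sets (19.1%) and all below 0 for 3774 (16.4%). They reached 1 log2 unit in 1 direction in all 3 replicates for 8 probe sets (0.0347%). The arrays of the groups did not overlap for 1028 (4.46%).

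Of the genes with the smallest p that did not pass, 3 with higher β4a values are described here. Ahcyl1, which binds the inositol trisphosphate receptor and tunes its calcium release, stood at 9.75, 9.66 and 9.77 with eGFP and at 10.39, 10.27 and 10.36 with β4a. The groups did not overlap, and the within-replicate differences were 0.64, 0.61 and 0.59 (limma adjusted p = 0.151). A dimmer Ahcyl1 probe set differed by 0.61 as well, whereas the brightest differed by 0.10. Robo1, the axonal receptor of Slit proteins, stood at 8.15, 7.16 and 7.36 against 8.75, 8.03 and 8.07, higher in each replicate by 0.59 to 0.87 (limma adjusted p = 0.106). Haghl, a glyoxalase-like gene, stood at 7.62, 7.27 and 7.53 against 8.29, 8.11 and 8.13, with no overlap (0.70, limma adjusted p = 0.106). Of the other Haghl probe sets, those with eGFP means of 6.41 and 6.92 gave 0.56 and 0.73, and a dim one gave -0.01.

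On the lower side 4 such genes are described. Kcna2, the delayed rectifier Kv1.2 of axons, stood at 11.31, 10.85 and 10.46 with eGFP and at 10.39, 10.25 and 10.07 with β4a. All β4a arrays lay below all eGFP arrays, by -0.64 (SE 0.11, limma adjusted p = 0.163), and another Kcna2 probe set also differed by -0.64. Grk5, a kinase that desensitises G-protein-coupled receptors, stood at 7.97, 5.10 and 6.20 against 6.86, 4.26 and 5.46 (-0.90, limma adjusted p = 0.163), and a second probe set differed by -0.57. Map3k10, a kinase upstream of JNK, stood at 7.30, 7.38 and 7.44 against 6.66, 6.66 and 7.01, without overlap (-0.59), but its other probe sets differed by 0.16 and -0.03. Nav1, a microtubule-binding neuron navigator protein, differed by -0.81, with -0.78, -0.83 and -0.83 in the replicates, and its other probe sets by -0.50, -0.38 and -0.07.

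Among the genes chosen by their smallest within-replicate difference, Rasgrp1 had the largest one, 1.18. Rasgrp1, a Ras exchange factor opened by calcium and diacylglycerol, stood at 6.28, 9.88 and 8.62 with eGFP and at 7.86, 11.06 and 9.97 with β4a. It was higher by 1.58, 1.18 and 1.34 in the replicates, although the ranges overlapped (limma adjusted p = 0.194). Klf6, a zinc finger factor of injury and axon growth, stood at 7.62, 7.78 and 6.34 against 8.68, 9.26 and 7.42 (1.21, limma adjusted p = 0.172). All of its other probe sets had higher β4a means too, by 0.81 to 1.15. Serinc3, a membrane protein, differed by 0.98, and its other probe sets by 0.27 to 0.88. Trpm3, a cation channel of the TRP family, stood at 6.66, 7.38 and 8.19 against 4.66, 5.60 and 7.46 (-1.50, limma adjusted p = 0.173). Its brighter probe sets gave -0.40 and -0.32, and a dim one gave 0.01.

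Other probe sets of a gene did not always follow the one that was named. Of 33 genes named by p or by size, 27 had other tested probe sets, 55 in all, of which 45 had the sign of the named one. Over all 5019 genes with several tested probe sets, the brightest pair shared a sign in 66.6%. That share takes 1 pair per gene without selection, whereas the 55 include several probe sets of some genes, so they are unlike measures. For Tpp2, a peptidase, the named probe set differed by -0.72, one of similar brightness by -0.48, brighter ones by 0.18 and 0.31 and a dimmer one by 0.32. For Clpx, Tmpo and Mtrex the brighter probe sets differed by 0.07, 0.02 and -0.13 against -0.98, 0.67 and -0.84 of the named ones.

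The activity-regulated genes were the list farthest from eGFP. Each list was read on the brightest probe set of every gene. The lists were chosen with earlier results of these data known. Their counts beside the share of all genes, here and below, are therefore a description and no test. Of 42 activity-regulated genes tested, 41 were above eGFP and 21 had an unadjusted p under 0.05 on the higher side, against 7.73% of all 10983 genes, and 0 on the lower side, against 3.92%. None passed after adjustment. Their median difference was 1.30, beside 0.03 over all genes, of which 6229 were above eGFP. The median was 2.18 in replicate 1, 0.77 in replicate 2 and 0.05 in replicate 3. Within replicates 1 to 3, 41, 29 and 26 of the 42 were above the eGFP array of the same number.

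The AP-1 factors, which bind DNA as Fos and Jun dimers, had a median difference of 1.93 over 6 genes. Fosb stood at 2.85, 4.48 and 3.57 with eGFP and at 10.14, 8.24 and 3.64 with β4a. It was high in β4a replicates 1 and 2 and near background in the remaining arrays (3.70, SE 1.09, limma adjusted p = 0.218). Atf3, a stress-inducible partner of Jun, had the same layout, with 5.21, 5.38 and 5.09 against 8.12, 7.73 and 5.23 (1.80, SE 0.45, limma adjusted p = 0.176). Without β4a replicate 3 it passed, at a limma adjusted p of 0.0428. Junb stood at 5.18, 5.61 and 5.46 against 7.78, 9.56 and 5.19. Fos, whose eGFP values were themselves spread, stood at 8.62, 12.97 and 12.09 against 14.15, 14.49 and 11.22.

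The Egr and Nr4a factors, zinc finger and orphan receptor genes induced by calcium, had a median of 1.71 over 7 genes. Nr4a1 stood at 4.91, 8.26 and 6.86 with eGFP and at 11.94, 12.04 and 6.08 with β4a. It was higher in replicates 1 and 2 and lower in replicate 3 (3.34, SE 1.46). Egr4 stood at 3.07, 3.25 and 3.44 against 5.54, 5.06 and 3.47. All of its eGFP values and its β4a replicate 3 lay below the filter level of 4. Egr4 was thus tested through arrays in which it was high. Its difference is not exact, and the groups cannot be called apart in replicate 3. Npas4, a neuron-specific factor that responds to calcium entry, stood at 3.02, 10.43 and 9.11 against 13.77, 13.55 and 6.98. Its eGFP replicate 1 lay below the filter level of 4, so that its difference of 10.75 in that replicate is not exact, and in replicate 3 it was lower by -2.14. Fos, Junb, Nr4a1 and Egr4 were chosen after their values were seen, as were Dusp1, Btg2, Scg2, Hmgcs1, Cacna1a, Cacna1b, Cacng2 and Neurod1.

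The 11 feedback genes of the ERK and G-protein pathways had a median of 0.73. Dusp6, the phosphatase that switches off ERK, stood at 8.78, 8.59 and 8.40 with eGFP and at 10.26, 10.33 and 9.18 with β4a. The groups did not overlap, and the difference was positive in replicate 3 as well (1.48, 1.75 and 0.78, limma adjusted p = 0.173). Gem, a small GTPase that binds calcium channel β subunits and lowers channel activity, stood at 3.60, 4.82 and 2.53 against 6.02, 7.99 and 3.55 (2.20, SE 0.52, limma adjusted p = 0.173). It was higher in each replicate, with 2 of its eGFP values and 1 β4a value below 4. Dusp1 stood at 7.36, 8.82 and 8.32 against 10.51, 13.03 and 8.26.

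Among the secreted and synaptic effectors, Bdnf, the neurotrophin, stood at 4.86, 9.75 and 5.85 with eGFP and at 9.66, 10.60 and 6.74 with β4a. It was higher by 4.80 in replicate 1 and by 0.85 and 0.89 in the others (limma adjusted p = 0.277), and a second probe set differed by 1.46. Ptgs2, the inducible cyclooxygenase, stood at 7.77, 4.87 and 4.39 against 8.77, 6.12 and 5.56. It was higher in each replicate by a similar amount (1.14, SE 0.32, limma adjusted p = 0.204). Btg2, an antiproliferative cofactor, stood at 4.97, 5.92 and 6.51 against 6.78, 9.02 and 6.56. Scg2, a granin of dense-core vesicles, stood at 8.80, 9.85 and 9.34 against 10.77, 10.35 and 9.49.

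The level of the whole list moved from array to array, in the controls too. Its median level was 6.89, 8.31 and 6.84 in eGFP replicates 1 to 3, and 10.01, 9.84 and 7.01 in the β4a arrays. In the β4b arrays it was 8.27, 9.10 and 7.15, and in the β4e arrays 6.32, 8.87 and 7.19. Set against eGFP of the same number, 36 of 42 members were higher by 1 log2 unit or more in β4a replicate 1, 19 in replicate 2 and 2 in replicate 3. Leaving out β4a replicate 1 gave a median of 0.62 and 13 members at an unadjusted p under 0.05, and leaving out eGFP replicate 1 gave 0.97 and 8. Without eGFP replicate 2 the count was 13. Without both arrays of replicate 1, and those of the other variants, the median was 0.39. The part that array handling or culture state plays in this was not tested.

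**Figure D3:**
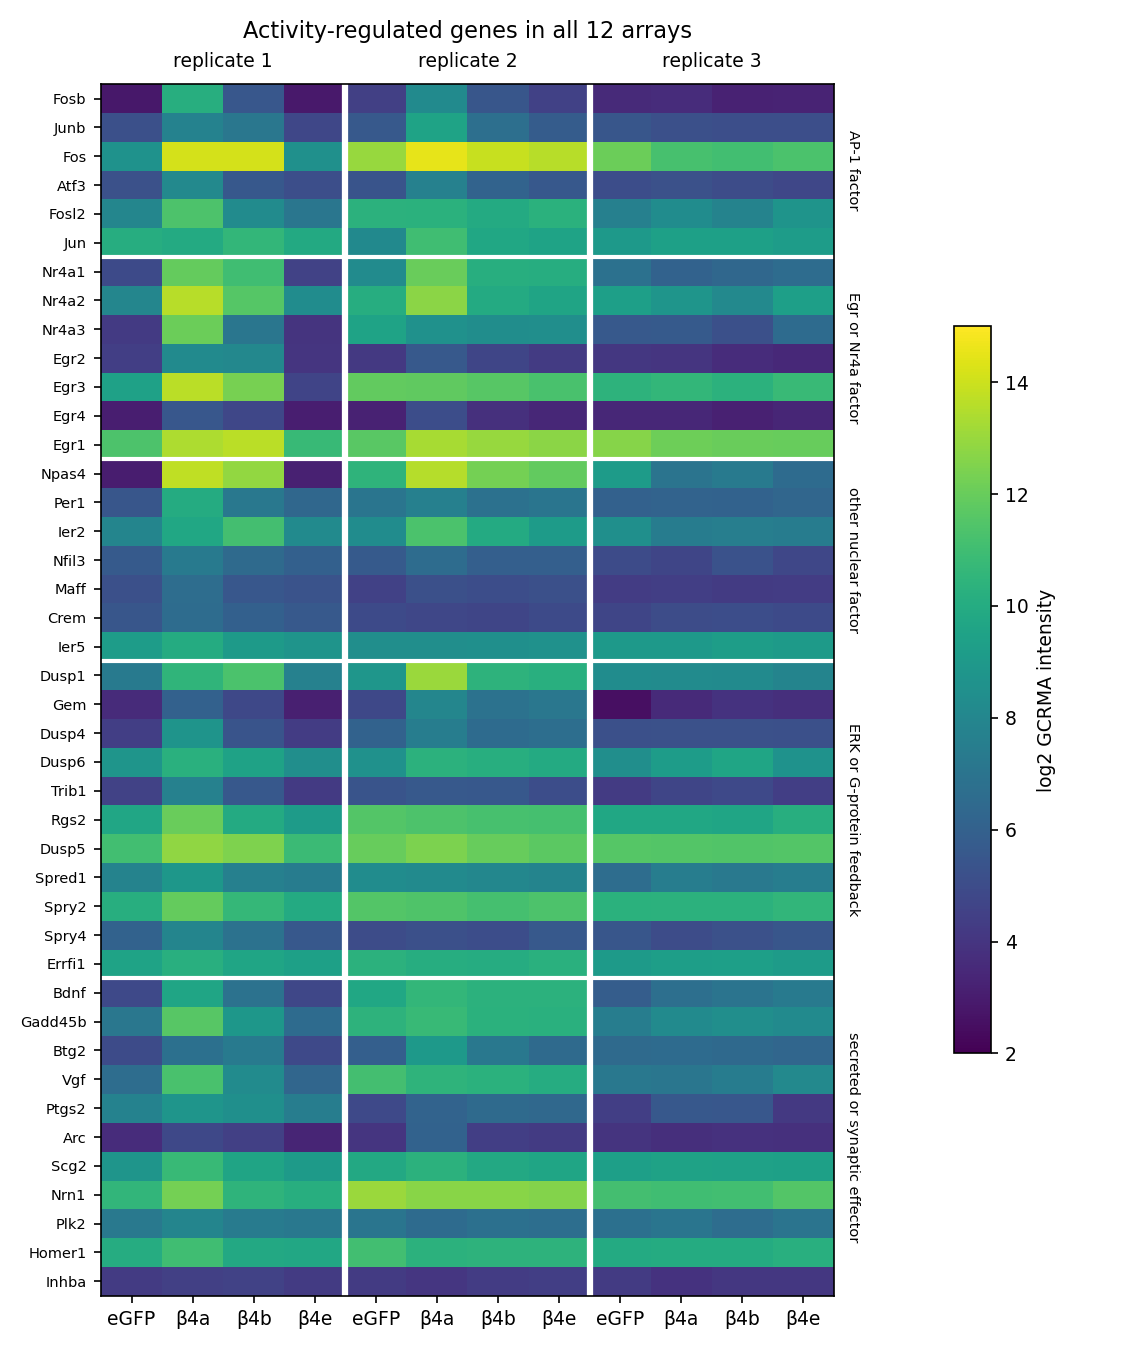
Log2 GCRMA intensity (colour, 2 to 15) of the 42 activity-regulated genes tested, 1 row per gene grouped by role and 1 column per array, with the replicate numbers side by side. β4a is the brightest column for most rows of replicates 1 and 2, eGFP and β4e are dark in replicate 1, and the 4 columns of replicate 3 look alike in most rows.

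The start regions of these genes were read from RefSeq promoter windows (GRCm38.p6, 250 bases before to 50 bases after a start). The windows of 1 chromosome were left out of the search, for the lists and for all genes alike. The remaining windows held 8916 of the 10983 genes tested. A gene was counted where any of its windows held the letters. The search covered, on both strands, TGACGTCA (the cyclic AMP response element, CRE), TCACNCCAC (a sterol response element), TGANTCA (the AP-1 site), CCAAT and TATAAA, none of which contains another. The CRE letters were found in 6 of 31 activity-regulated genes with a window (19.4%), namely Maff, Dusp1, Errfi1, Scg2, Plk2 and Btg2, against 3.69% of all genes tested. TATAAA was found in 6 of 31 (19.4%, against 8.6%), TGANTCA in 1 (3.23%, against 6%), CCAAT in 12 (38.7%, against 42.9%) and TCACNCCAC in 0 (against 1.35%). A match describes letters and not a bound site. The 6 genes with the CRE letters differed by 0.76 (Maff), 2.43 (Dusp1), 0.23 (Errfi1), 0.87 (Scg2), 0.13 (Plk2) and 1.65 (Btg2). Npas4, Fosb and Nr4a1, with the largest differences among the 31, did not hold these letters. The windows of Dusp1, Scg2 and Btg2 are shown because each holds the CRE letters, in capitals, and each gene had an unadjusted p under 0.05. They lie at chr17:26508423-26508722, chr1:79439977-79440276 and chr1:134079106-134079405, all on the minus strand, and the first base of the match lies at -143, -68 and -166 from the start.
Dusp1: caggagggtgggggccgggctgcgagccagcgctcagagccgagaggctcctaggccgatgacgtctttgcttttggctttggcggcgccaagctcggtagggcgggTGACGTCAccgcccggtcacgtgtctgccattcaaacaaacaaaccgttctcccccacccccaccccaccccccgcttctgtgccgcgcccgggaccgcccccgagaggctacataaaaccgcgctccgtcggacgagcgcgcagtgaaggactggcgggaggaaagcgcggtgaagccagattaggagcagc
Scg2: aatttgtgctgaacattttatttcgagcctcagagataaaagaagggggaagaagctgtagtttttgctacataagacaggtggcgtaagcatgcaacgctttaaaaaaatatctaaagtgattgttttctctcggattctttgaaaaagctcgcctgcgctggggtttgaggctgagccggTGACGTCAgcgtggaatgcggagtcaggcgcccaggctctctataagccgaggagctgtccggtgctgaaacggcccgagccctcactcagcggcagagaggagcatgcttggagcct
Btg2: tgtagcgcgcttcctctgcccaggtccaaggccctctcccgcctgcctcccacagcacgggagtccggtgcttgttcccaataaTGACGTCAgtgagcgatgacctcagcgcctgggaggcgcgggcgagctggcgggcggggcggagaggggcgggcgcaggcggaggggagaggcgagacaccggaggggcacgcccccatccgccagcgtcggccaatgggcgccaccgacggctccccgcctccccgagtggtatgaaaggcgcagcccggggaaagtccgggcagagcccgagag

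Genes of cholesterol synthesis were mostly above eGFP with β4a, by differences from -0.02 (Pmvk) to 0.80 (Cyp51). Of 18 tested, 17 were above eGFP, 7 had an unadjusted p under 0.05 on the higher side (background 7.73%) and 0 on the lower side. None passed after adjustment. Their median difference was 0.21, with 0.12, 0.25 and 0.25 in replicates 1 to 3. The median was 0.18 over the 7 genes of the mevalonate arm and 0.25 over the 11 genes of squalene and sterol synthesis. The genes of this list also give signal in astrocytes, whose markers had higher β4a values in replicates 2 and 3 (below); the part of astrocytes in the result was not tested.

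Fdft1, the squalene synthase, stood at 10.31, 10.45 and 10.66 with eGFP and at 11.01, 11.07 and 10.90 with β4a. The groups did not overlap (0.53, SE 0.12, limma adjusted p = 0.173). Cyp51, the lanosterol demethylase, stood at 9.27, 9.05 and 9.14 against 10.58, 9.60 and 9.70, also apart (0.80, SE 0.26, limma adjusted p = 0.232). Idi1, the isopentenyl diphosphate isomerase, stood at 10.20, 10.37 and 10.21 against 11.22, 10.78 and 10.47. Msmo1, a sterol methyl oxidase, stood at 9.80, 9.95 and 9.92 against 10.78, 10.42 and 10.22, and in both genes every β4a array lay above every eGFP array. Sqle, the squalene epoxidase, differed by 0.20, 0.87 and 0.76 and its groups overlapped. Hmgcs1, the cytosolic HMG-CoA synthase, stood at 13.07, 12.99 and 12.92 against 13.33, 13.21 and 13.18 (0.25, limma adjusted p = 0.321). Over all genes, every β4a array lay above every eGFP array in 2.5%.

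The genes that control sterol and fatty acid supply had a mixed record. In cholesterol uptake and SREBP control, 7 of 12 were above eGFP and 2 had an unadjusted p under 0.05, both higher (background 7.73%). The count was 4 without eGFP replicate 1 or β4a replicate 3. Stard4, a sterol carrier, stood at 9.50, 10.15 and 10.33 with eGFP and at 10.45, 10.61 and 10.69 with β4a, without overlap (0.59, limma adjusted p = 0.173). Mylip, the ligase that degrades the LDL receptor, differed by 0.75, 0.25 and 1.14. In fatty acid synthesis and desaturation 14 of 17 were above eGFP, with a median of 0.25 (0.01, 0.37 and 0.29 in the replicates). Of the 17, 5 had an unadjusted p under 0.05, all higher (background 7.73%). That count became 2 on leaving out eGFP replicate 2, eGFP replicate 3 or β4a replicate 3, and 3 without β4a replicate 2, and the median was 0.16 without eGFP replicate 2. Acsl6, the acyl-CoA synthetase of neurons, stood at 9.09, 9.24 and 8.82 against 9.59, 9.80 and 9.31, without overlap (0.52, SE 0.09, limma adjusted p = 0.163). Fads2, a desaturase of polyunsaturated fatty acids, differed by 0.16, 0.73 and 1.29, and Elovl5, an elongase, by 0.36, 0.29 and 0.65.

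In the promoter windows of cholesterol synthesis genes the letters CCAAT, the box bound by NF-Y, were found in 15 of 15 genes with a window (100%), against 42.9% of all genes tested. In the unfolded protein response list they were found in 18 of 21 (85.7%). The sterol element TCACNCCAC was found in 1 of the 15, Hmgcs1 (6.67%, against 1.35%), the CRE in 0 (against 3.69%), the AP-1 letters in 2 (13.3%, against 6%) and TATAAA in 0 (against 8.6%). The windows of Cyp51, Idi1 and Hmgcs1 are shown as an example each of 1, of 2 and of several matches. Capitals mark CCAAT or its reverse complement and, in Hmgcs1, also the sterol element. They lie at chr5:4104648-4104947 on the minus strand, and at chr13:8885356-8885655 and chr13:119690101-119690400 on the plus strand.
Cyp51: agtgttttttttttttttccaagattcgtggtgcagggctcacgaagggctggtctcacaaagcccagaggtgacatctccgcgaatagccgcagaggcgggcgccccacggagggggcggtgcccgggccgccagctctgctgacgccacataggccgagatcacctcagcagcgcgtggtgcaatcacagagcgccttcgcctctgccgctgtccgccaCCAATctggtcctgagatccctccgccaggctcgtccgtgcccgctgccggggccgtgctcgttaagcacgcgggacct
Idi1: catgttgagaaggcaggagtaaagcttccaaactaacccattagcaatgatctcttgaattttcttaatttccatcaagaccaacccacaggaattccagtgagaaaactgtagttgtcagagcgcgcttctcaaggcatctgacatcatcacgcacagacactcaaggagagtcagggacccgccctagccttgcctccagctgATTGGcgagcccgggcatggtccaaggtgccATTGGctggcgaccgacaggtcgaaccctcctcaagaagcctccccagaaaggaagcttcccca
Hmgcs1: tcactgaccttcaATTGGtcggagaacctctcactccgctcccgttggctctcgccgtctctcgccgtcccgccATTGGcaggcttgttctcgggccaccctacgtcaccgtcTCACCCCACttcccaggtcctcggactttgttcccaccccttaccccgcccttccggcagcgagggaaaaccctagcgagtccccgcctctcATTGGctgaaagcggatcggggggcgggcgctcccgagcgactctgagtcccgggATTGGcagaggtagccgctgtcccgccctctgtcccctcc

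Chaperones of the endoplasmic reticulum were above eGFP throughout the list. Of 25 genes of the unfolded protein response 21 were above eGFP, as were 6229 of all 10983 genes. The list median was 0.17 (0.30, 0.18 and 0.07 in the replicates). An unadjusted p under 0.05 was found for 7 of the 25, all higher (background 7.73% higher and 3.92% lower). All 7 were among the 14 ER chaperones, each of which was above eGFP (median 0.24), while the 11 sensors, factors and degradation genes had 0 (median 0.10). None passed after adjustment. Pdia3, a disulphide isomerase, stood at 11.37, 10.35 and 10.05 with eGFP and at 11.71, 11.14 and 10.38 with β4a (0.48, SE 0.12, limma adjusted p = 0.190). Hspa5, the chaperone BiP, stood at 12.41, 12.84 and 12.62 against 13.03, 13.10 and 12.72. Dnajb9, its cochaperone, differed by 0.37, 0.28 and 0.22. In these genes the groups overlapped but each β4a array lay above its eGFP partner. Leaving out eGFP replicate 1 lowered the count from 7 to 2, and leaving out β4a replicates 1, 2 or 3 lowered it to 4 each, while without eGFP replicate 3 the median was 0.25.

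Pore-forming calcium channel genes had fitted differences below 0 with β4a, from -0.59 (Cacna1d) to -0.03 (Cacna1a). Of 14 calcium channel subunits tested, 10 were below eGFP, 5 with an unadjusted p under 0.05 on the lower side (background 3.92%) and 1 on the higher side. None passed after adjustment, and the median was -0.22. All 6 pore genes were below eGFP, 4 of them with an unadjusted p under 0.05, and their median was -0.35.

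Cacna1a, the P/Q-type pore that β4 mainly serves in granule cells, stood at 11.25, 11.29 and 11.41 with eGFP and at 11.54, 11.08 and 11.25 with β4a, overlapping and differing by -0.03 (SE 0.13). Its sign turned on leaving out either eGFP replicate 3, β4a replicate 2 or β4a replicate 3. Cacna1b, the N-type pore, differed by -0.18. The L-type pore Cacna1c stood at 8.58, 7.64 and 8.10 against 8.39, 7.22 and 7.58, below eGFP in each replicate (-0.37, SE 0.11, limma adjusted p = 0.220). The other L-type pore, Cacna1d, differed by -0.09, -0.95 and -0.74. The R-type pore Cacna1e stood at 11.97, 12.11 and 12.22 against 11.48, 11.79 and 12.05 (-0.33, limma adjusted p = 0.251), and the T-type pore Cacna1g differed by -0.55, -0.09 and -0.47. Of the auxiliary genes, Cacng2, which is stargazin and traffics AMPA receptors, differed by -0.29, and Cacng5, a related protein, by 0.88. On leaving out single arrays, the count of 5 lower genes became 3 (eGFP replicate 2 or 3), 1 (β4a replicate 1) or 2 (β4a replicate 2), and the median became -0.13 without eGFP replicate 3.

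**Figure D4:**
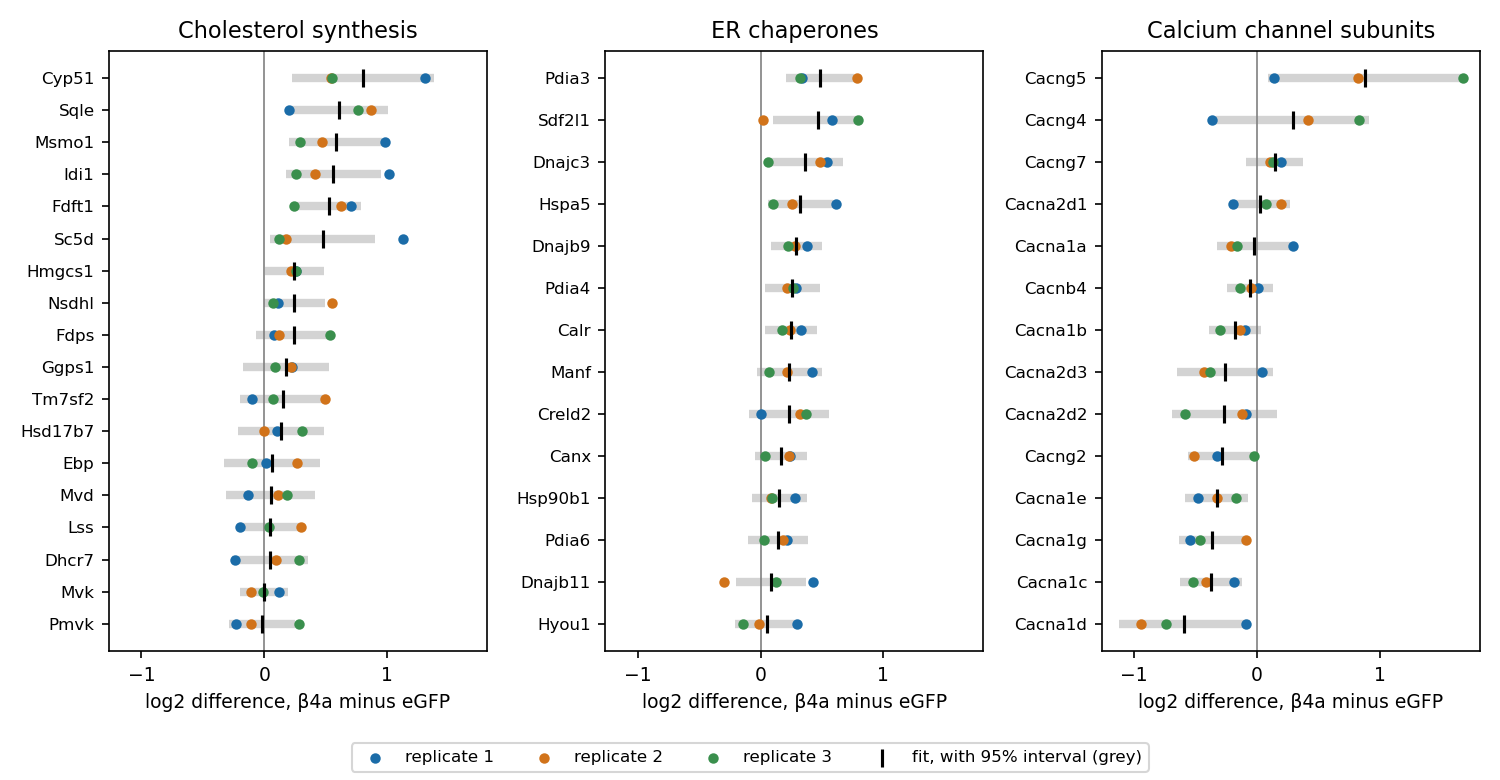
Log2 difference of β4a minus eGFP for each tested gene of 3 groups, with a coloured dot per replicate number, a black tick for the fit and a grey bar for its 95% interval. The cholesterol synthesis genes and ER chaperones lie mostly right of 0, and the pore genes (Cacna1) lie left of 0 by the fit.

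Other calcium genes were less one-sided. Of 28 calcium-dependent kinases and phosphatases and their targets, 10 were above and 18 below eGFP. Prkcb, a calcium-activated protein kinase C, stood at 12.33, 10.91 and 11.72 with eGFP and at 11.71, 9.97 and 10.87 with β4a, lower in each replicate (-0.80, SE 0.20, limma adjusted p = 0.179). Mef2c, a calcium-regulated transcription factor, was higher by 0.46, 0.73 and 0.49. Of 24 genes of calcium stores, pumps and buffers 15 were below eGFP, among them the exchangers Slc24a3 (-0.45) and Slc8a3 (-0.37), while the store-operated channel Orai1 differed by 0.37. Of 11 genes reported as nuclear partners or targets of β4, 5 were above and 6 below eGFP. Among them 0 had an unadjusted p under 0.05 (background 7.73% higher and 3.92% lower).

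Potassium channel genes had more members on the higher side. Of 32 tested, 7 had an unadjusted p under 0.05 on the higher side (background 7.73%) and 1, Kcna2, on the lower side (background 3.92%). Their median of 0.04 was close to that of all genes and became 0.0094 without β4a replicate 1, 0.08 without replicate 2 of either group and 0.14 without β4a replicate 3. Kcnip2, a calcium-binding subunit of A-type channels, stood at 6.07, 8.28 and 6.62 with eGFP and at 6.45, 8.80 and 7.59 with β4a (0.62, SE 0.13, limma adjusted p = 0.173). Kcnj12, an inward rectifier, stood at 5.30, 5.86 and 5.76 against 5.95, 6.64 and 6.21, without overlap (0.63). Kcnab2, a β subunit of Kv1 channels, differed by 0.47, 0.27 and 0.41. The count of 7 was 3 without β4a replicate 1.

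Synaptic genes split in both directions. Of 41 presynaptic vesicle genes 29 were below eGFP, as were 4754 of all 10983 genes, and 5 had an unadjusted p under 0.05 lower (background 3.92%) and 1 higher (background 7.73%). The median was -0.08, but -0.03 without eGFP replicate 2 and -0.13 without eGFP replicate 1. Syn3, a synapsin, stood at 9.46, 6.48 and 8.85 with eGFP and at 8.90, 4.97 and 7.59 with β4a (-1.11, SE 0.29, limma adjusted p = 0.191). Pclo, the active zone scaffold Piccolo, differed by -0.48, -0.48 and -0.10 and Stx1a, a SNARE protein, by -0.34, -1.44 and -0.80. Vamp1, another SNARE protein, was the higher one, at 4.90, 6.55 and 5.51 against 5.69, 7.46 and 5.90 (0.70, limma adjusted p = 0.173). The 5 lower genes became 3 without eGFP replicate 2 and 2 without β4a replicate 3. Of 32 glutamate receptor and postsynaptic genes, 5 were higher (background 7.73%) and 5 lower (background 3.92%) at an unadjusted p under 0.05. The higher ones became 1 without eGFP replicate 2, β4a replicate 1 or β4a replicate 2, and 3 without eGFP replicate 1 or β4a replicate 3, and the lower ones 3 without β4a replicate 1. Grm5, a metabotropic receptor, stood at 10.78, 6.46 and 10.46 against 10.16, 5.41 and 9.27 (-0.95), and Nlgn3, a neuroligin, differed by -0.40, -0.28 and -0.59. Gria2, the AMPA receptor subunit that bars calcium, differed by -0.52, -0.25 and -0.18. Gria1 stood at 5.34, 4.36 and 5.07 against 5.61, 5.72 and 8.02, apart but with most of the difference in β4a replicate 3.

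Markers of interneurons and unipolar brush cells moved beside these synaptic genes in part. Of 14 tested, 6 were above and 8 below eGFP, with medians of 0.14, -0.41 and -0.10 in the replicates. Their median level ran from 7.14 to 7.69 in the eGFP arrays and from 7.01 to 8.08 in the β4a arrays. Gad1 stood at 13.51, 12.62 and 13.29 against 13.64, 12.33 and 13.13. Gad2 stood at 9.08, 8.19 and 8.62 against 9.27, 7.64 and 8.34, and Slc32a1 at 9.57, 7.33 and 8.58 against 9.25, 6.35 and 8.58. Eomes of unipolar brush cells stood at 6.38, 7.21 and 5.99 against 8.39, 6.83 and 5.88. In replicates 1 to 3 Insm1 differed by -1.08, -1.67 and -1.69, Syn3 by -0.57, -1.51 and -1.27 and Grm5 by -0.62, -1.05 and -1.18. The part of interneurons and unipolar brush cells in these lower values was not tested.

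More granule cell identity genes were below eGFP than above it with β4a, by small differences. Of 28 tested, 19 were below eGFP, as were 4754 of all 10983 genes, and 9 were above. The granule cell markers Gabra6 and Cbln3 had differences of mixed sign. Gabra6 stood at 13.79, 13.90 and 13.72 with eGFP and at 13.93, 13.90 and 13.58 with β4a. Cbln3 stood at 13.211, 13.336 and 13.285 against 13.425, 13.284 and 13.078. At an unadjusted p under 0.05, 4 were lower (background 3.92%) and 0 higher (background 7.73%). The median was -0.09 (-0.06, -0.07 and -0.12 in the replicates). Fat2, a giant cadherin of parallel fibres, stood at 11.82, 12.80 and 12.42 with eGFP and at 11.30, 12.13 and 12.26 with β4a (-0.45, limma adjusted p = 0.257). En2, a homeobox gene of the cerebellum, stood at 12.44, 12.48 and 12.43 against 12.27, 12.22 and 12.21, without overlap though by only -0.22. Nfib, a factor of granule cell maturation, differed by -0.90 in replicate 1 and by -0.13 and -0.20 in the others. On leaving out single arrays, the count of 4 became 1 (β4a replicate 1), 3 (eGFP replicate 3) or 2 (each of the other arrays of both groups), and the median became -0.05 without β4a replicate 1. Astrocyte markers moved beside this list, with medians of -0.29, 0.40 and 0.88 in the replicates, and without eGFP replicate 1 the medians were -0.13 for granule cell identity and 0.67 for astrocytes. Their part in the result was not tested.

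Chromatin regulators were lower in a similar share. Of 41 tested, 30 were below eGFP, as were 4754 of all 10983 genes, and the median was -0.13. At an unadjusted p under 0.05, 5 were lower (background 3.92%) and 1 higher (background 7.73%). Kmt2d, a histone H3 lysine methyltransferase, stood at 9.55, 9.31 and 9.35 with eGFP and at 9.11, 8.79 and 9.04 with β4a, without overlap (-0.43, SE 0.14, limma adjusted p = 0.234). Chd7, a remodeller, differed by -0.29, -0.19 and -0.28, and Setd2, which methylates histones along transcribed genes, by -0.03, -0.52 and -0.42. Hdac9, a class II deacetylase bound by Mef2, was the one that was higher, by 0.68, 1.37 and 0.58 (limma adjusted p = 0.183). On leaving out single arrays, the count of 5 became 1 (β4a replicate 2), 2 (β4a replicate 3), 3 (eGFP replicate 2 or 3) or 8 (β4a replicate 1). Over all genes, every β4a array lay below every eGFP array in 1.63%.

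Astrocyte and microglia markers had medians of opposite sign between replicates, while those of oligodendrocytes were 0.09, 0.09 and 0.04. Of 27 markers of astrocytes and Bergmann glia 26 were above eGFP, with a median of 0.33, but the replicate medians were -0.29, 0.40 and 0.88. Their median level was 10.35, 9.21 and 9.58 in eGFP replicates 1 to 3 and 10.14, 9.82 and 10.83 in the β4a arrays. It was 10.09, 10.26 and 11.24 with β4b and 10.33, 10.36 and 10.06 with β4e. In replicate 2 eGFP was thus the lowest array, and in replicate 3 β4b lay above β4a. Slc1a3, a glial glutamate transporter, stood at 10.05, 7.79 and 8.84 with eGFP and at 9.73, 9.82 and 11.19 with β4a, highest in β4a replicate 3. Gja1, the astrocytic connexin, differed by 0.06, 1.93 and 0.91. At an unadjusted p under 0.05 there were 2 higher genes of the 27 (background 7.73%). On leaving out single arrays this became 16 (eGFP replicate 1), 4 (β4a replicate 1), 1 (eGFP replicate 3) or 0 (eGFP replicate 2, β4a replicate 2 or β4a replicate 3). The median became 0.67 (eGFP replicate 1), 0.17 (eGFP replicate 3) or 0.22 (β4a replicate 3). The microglial medians went the same way (-0.62, 0.11 and 0.32 over 16 genes), and so did those of cytokine and acute-phase genes (-0.07, 0.25 and 0.51 over 23 genes). In that last list 5 genes had an unadjusted p under 0.05, all higher (background 7.73%). The number became 2 on leaving out eGFP replicate 3 or β4a replicate 3 and 3 on leaving out replicate 2 of either group. They included Nfkbiz, an inducible partner of NF-κB, at 9.64, 8.93 and 8.43 against 10.62, 9.71 and 9.40 (0.91, limma adjusted p = 0.173). Cxcl1, a chemokine, differed by 0.12, 0.41 and 1.38. Beside these, the medians in replicates 1 to 3 were 0.12, 0.25 and 0.25 for cholesterol synthesis and 2.18, 0.77 and 0.05 for the activity-regulated genes. The part of glial cells in those lists was not tested.

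**Figure D5:**
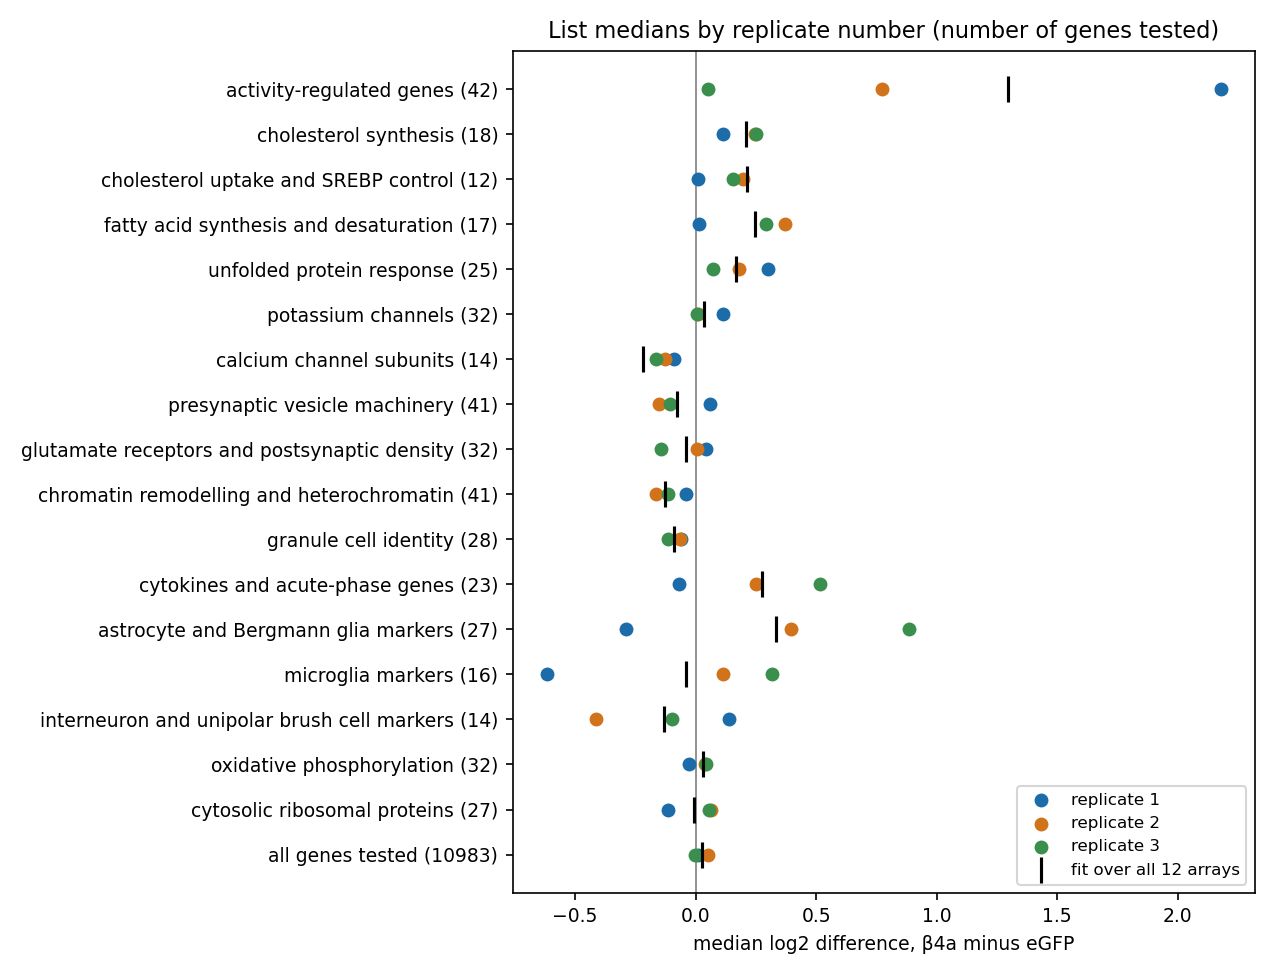
Median log2 difference of β4a minus eGFP for 17 gene lists and for all genes tested, with a coloured dot per replicate number and a black tick for the fit over all 12 arrays. The activity-regulated genes spread from 0.05 to 2.18 and the astrocyte markers from -0.29 to 0.88, whereas cholesterol synthesis stays between 0.12 and 0.25 and oxidative phosphorylation lies close to 0.

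General machinery lay close to eGFP. The median difference was 0.03 over 32 genes of oxidative phosphorylation, -0.01 over 27 cytosolic ribosomal proteins, 0.04 over 31 proteasome subunits and -0.01 over 43 splicing factors, beside 0.03 over all genes. Among 42 genes of dynein, dynactin and kinesin transport, in which Hook3 acts, the median was 0.00. The dynein intermediate chain Dync1i1 stood at 10.52, 11.31 and 10.70 against 10.91, 11.75 and 11.02 (0.38, limma adjusted p = 0.181). Among 29 Ras family exchange factors and activating proteins, the family of Rasgef1a and Rasgrp1, the median was 0.07. Rapgef5 differed by 0.58 and Ralgds by -0.37, at an unadjusted p under 0.05. Among 26 neuroendocrine factors and dense-core granule genes, where Insm1 belongs, the median was -0.01.

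Against the other variants, no probe set passed for β4a. With limma and the replicate block 0 of 23044 passed against β4b (0%), with 619 at an unadjusted p under 0.05 (2.69%), and 0 against β4e (0%), with 1458 (6.33%). These comparisons share the β4a arrays with the one above, so their values are given side by side only. Insm1 had a mean of 7.88 with β4b and 8.44 with β4e, and β4a minus β4b was -0.17 (95% interval -0.46 to 0.12), while β4a minus β4e was -0.73 (-1.02 to -0.44). Hook3 differed by 0.32 from β4b (0.07 to 0.56) and by 0.61 from β4e (0.37 to 0.85). Rasgef1a differed by 0.29 from β4b (0.03 to 0.54) and by 0.36 from β4e (0.10 to 0.61). Fosb differed by 2.59 from β4b (0.14 to 5.04) and by 3.77 from β4e (1.32 to 6.23). Dusp6 differed by 0.15 from β4b (-0.55 to 0.84) and by 0.92 from β4e (0.23 to 1.62). These intervals are not adjusted for the number of genes. The smallest limma adjusted p among 33 probe sets named by p or size was 0.997 against β4b and 0.759 against β4e.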

How the data were processed

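RNA of each sample was read on 1 Affymetrix mouse array. The authors deposited log2 intensities from GCRMA, per the submitters' processing notes, and a GCRMA version is not given in the sources used here. Values ran from 1.27 to 15.0, and their number per group (3 arrays) limits the precision.

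Of 45101 probe sets, 64 AFFX controls and those not above 4 in 3 of 12 arrays were left out, which left 23044 (19477 with 1 symbol, 10983 genes). By GEO's platform annotation 34945 probe sets had 1 symbol, 932 had several and 9160 had none. All 12 arrays were fitted with limma 3.58.1 in R 4.3.3 (group and replicate number, 6 residual degrees of freedom). P-values were two-sided, adjusted by Benjamini-Hochberg over all probe sets, with a threshold of 0.05. The pairing comes from the replicate numbers of the titles: deviations from group means correlated by 0.699 to 0.884 in the 18 pairs of the same number and by at most 0.146 in others. The fit was also run on simulated data. Their errors were drawn independently for each probe set, without genes that shift together in an array, so that run is no support for the calls.

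The genes named were those past the threshold, 12 per direction by p with 3 differences of 1 sign, 8 per direction by the smallest within-replicate difference (mean above 5), Cacnb4, and up to 4 members per list by p and 2 by size. The text describes a selection of these. Members and the 41 lists were chosen with earlier results of these data known, from general knowledge, and 954 of 1195 entries were tested. Sequences are RefSeq's (GRCm38.p6). Fits without the block, with 6 arrays, other filters and scalings, and without each array were run as alternatives.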

Additional observations from a re-analysis of the deposited data

How the results depend on the processing

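The count of 3 probe sets for β4a against eGFP was 3 with no filter, with a filter at 5, with array quality weights and at an adjusted p under 0.10. It was 1 (Insm1) with quantile normalization, with arrays centred on the median, with a trend in the prior variance and with 1 probe set per gene, and 0 with only the 6 arrays. With the fit that had no replicate block, and so no pairing, it was 0 (smallest limma adjusted p = 0.9999). Without single arrays or replicate numbers it ran from 0 to 2. Insm1 ran from -1.68 to -1.38 in the leave-one-out fits, Hook3 from 0.99 to 1.11 and Rasgef1a from 0.94 to 1.16. With the mean over all probe sets of a gene, the median was -0.13 for calcium channel subunits and -0.0432 for granule cell identity. On leaving out arrays or replicate numbers the median ran from -0.23 to -0.11 for calcium channel subunits, from -0.132 to -0.0505 for granule cell identity, from -0.143 to -0.0617 for chromatin, from 0.39 to 1.81 for activity-regulated genes, from 0.10 to 0.71 for astrocyte markers and from 0.18 to 0.25 for cholesterol synthesis. Of 135 gene values, the sign turned for 1, Cacna1a, whose leave-one-out values ran from -0.184 to 0.0731: it was 0.02 without eGFP replicate 3, 0.0731 without β4a replicate 2, and 0.02 on leaving out β4a replicate 3. On leaving out all arrays of number 2 or number 3 it was 0.07 or 0.04. Counts of list members without single arrays were added after seeing the data. Probe sets near 4 are close to background, which limits their differences.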

Other observations

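Genes of the circadian clock differed in both directions. Of 18 tested, 4 were higher (background 7.73%) and 2 lower (background 3.92%) with β4a at an unadjusted p under 0.05. None passed after adjustment. Without eGFP replicate 1 these counts were 0 and 1, and without β4a replicate 1 they were 2 and 2. Clock, the activator of the loop, stood at 10.35, 10.30 and 10.18 with eGFP and at 9.45, 9.90 and 9.98 with β4a, without overlap (-0.50, limma adjusted p = 0.182). Its partner Arntl stood at 8.21, 7.46 and 7.24 against 7.21, 7.04 and 7.16, also apart, with most of the difference in replicate 1. The repressor Bhlhe40, which neuronal activity also induces, was higher by 1.86, 0.32 and 0.37. Of 21 p53 targets and apoptosis genes, the BH3 gene Pmaip1 differed by 0.73 and Hrk by -0.41, each of 1 sign in all replicates (limma adjusted p = 0.163 and 0.173). Pmaip1 was dim, with eGFP values of 4.93, 3.19 and 3.03.

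Some genes, like the astrocyte markers, had their lowest difference in replicate 1 and higher ones in replicates 2 and 3. Phgdh, the first enzyme of serine synthesis and abundant in astrocytes, differed by -0.30, 1.58 and 1.82. Ccnd2, a cyclin of progenitors and glia, differed by -0.24, 1.67 and 1.24, and Gas1, a Hedgehog coreceptor, by -0.03, 0.72 and 1.53. Ifi35, an interferon-induced gene, differed by 0.18, 1.69 and 1.26. The part of glial cells in these values was not tested. Of 20 oligodendrocyte markers 14 were above eGFP. Their median was 0.06 (0.09, 0.09 and 0.04 in the replicates), 0.0129 without eGFP replicate 2 and 0.12 without β4a replicate 2. The neuronal splicing factor Nova1 stood at 10.15, 10.16 and 10.26 with eGFP and at 10.50, 10.68 and 10.48 with β4a, without overlap (0.36, limma adjusted p = 0.179).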
